A study of Mus musculus with 4 samples.

Results

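Interleukin receptor chains were followed across droplet-based scRNA-seq of T cells from the mouse small intestine. The genes were taken by symbol: the IL-2 receptor chains *Il2ra*, *Il2rb* and *Il2rg*, the receptors *Il7r*, *Il4ra* and *Il21r*, the IL-6 receptor chains *Il6ra* and *Il6st*, and the IL-18 receptor chains *Il18r1* and *Il18rap*. All 10 were among the 13265 genes of the deposited table, and all 10 had at least 200 corrected unique molecular identifiers (UMIs, the tags that count captured RNA molecules) over all cells, as had 7490 genes in all. By GENCODE on GRCm38, *Il2ra* lies on chromosome 2 (11642807 to 11693193, plus strand), *Il2rb* and *Il7r* on chromosome 15 (78479256 to 78495271 and 9505788 to 9530176, minus strand), *Il2rg* on chromosome X (101264378 to 101268255, minus strand), and *Il4ra* and *Il21r* on chromosome 7 (125552120 to 125579474 and 125603429 to 125633570, plus strand). All are protein-coding, and the other 4 are placed where they are described.

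Many interleukin receptors combine a chain that binds the cytokine with specificity and a chain shared between receptors. *Il2rg* encodes the common γ chain of the receptors for IL-2, IL-4, IL-7, IL-15 and IL-21, which signal through Janus kinases and STAT factors, and *Il6st* encodes gp130, the shared signaling chain of the IL-6 family. IL-18 acts through a receptor of the IL-1 receptor family, in which *Il18r1* binds the cytokine, *Il18rap* completes the complex and MyD88 carries the signal, and it is known for raising IFNγ in T cells.

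The cells were YFP+CD4+ T cells sorted from 7- to 8-month-old C57BL/6 mice that carried *Il17a-cre* and the reporter *Rosa26-stop-fl/fl-yfp*, so that YFP stayed on in any cell that had once expressed *Il17a*, whether or not it still did. TGFβR-KO mice also had *Tgfbr2* fl/fl alleles, TGFβR-CA mice a constitutively active form of *Tgfbr1* behind a stop-lox cassette, and TGFβR-WT littermates neither. Each of the 4 samples was a pool of mice, of which 1 was TGFβR-KO, 1 was TGFβR-CA and 2 were TGFβR-WT, and TGFβR-KO was sequenced beside TGFβR-WT in a first batch and TGFβR-CA beside TGFβR-WT in a second. The batch and the condition cannot be told apart between TGFβR-KO and TGFβR-CA.

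The table held 2975 cells labelled TGFβR-KO, 1098 labelled TGFβR-CA and 1007 labelled TGFβR-WT, with a median of 3794, 3918 and 3659 corrected UMIs per cell. By the suffix of their names, the TGFβR-WT cells split into 709 (the larger set) and 298 (the smaller set), neither of which could be tied to a TGFβR-WT sample. Between these sets, 22.1% of the 7490 genes and 7 of the 10 receptor chains were at least 1.5-fold apart. A difference from TGFβR-WT is therefore called here only where the level was at least 1.5-fold higher, or lower, than in the pooled TGFβR-WT cells and in each set alone. TGFβR-KO and TGFβR-CA had 1 sample each and the TGFβR-WT cells could not be tied to their 2 samples, so no test was made and no p-value is given. The larger set shared 14 cell barcodes with TGFβR-KO and 1 with the smaller set, and TGFβR-KO shared 1 with TGFβR-CA. T cell genes (7 of 7 found) summed to between 95.2 and 114.8 corrected UMIs per 10000 in each set, myeloid genes (4 of 5 found) to at most 0.0525 and epithelial genes (5 of 5) to at most 0.0871. Other lists reached more: B and plasma cell genes 0.703, stroma genes 0.670, CD8 and NK genes 0.335 and γδ T cell genes 0.181. Most of the B and plasma cell sum was *Jchain* (0.659 in TGFβR-CA), and most of the stroma sum was *Pecam1* (0.670 in the larger TGFβR-WT set). *Tgfbr1* was at 0.792 per 10000 in cells labelled TGFβR-CA, at 0.367 in the larger and 2.79 in the smaller TGFβR-WT set. Cells labelled TGFβR-CA thus lay between the sets, well below the smaller. Whether UMIs of the active form were counted as *Tgfbr1* is unknown, so this does not check the label. Conditions are given as the cells are labelled. *Tgfbr2* was at 1.48 in cells labelled TGFβR-KO and 1.73 in TGFβR-WT, and UMIs need not come from the deleted part, so this does not check the deletion.

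Over all cells, the chains set apart in cells labelled TGFβR-KO were those for IL-18 and IL-6. *Il18rap* was 4.87-fold higher than in TGFβR-WT, and *Il6ra* and *Il6st* were 4.42-fold and 2.64-fold lower. Thus 1 of the 10 chains was called higher, beside 2.94% of all 7490 genes, and 2 of 10 were called lower, beside 5.43%. In cells labelled TGFβR-CA, the single call was *Il2rg*, 2.13-fold higher, so that 1 of 10 was called higher, beside 1.23% of genes, and 0 lower, beside 2.74%. The median log2 ratio of the 10 chains was 0.19 for TGFβR-KO, where that of all genes was −0.17, and −0.14 for TGFβR-CA, where that of all genes was −0.11. Outside TGFβR-KO, *Il18rap* and *Il4ra* had 125 and 109 UMIs and would not have reached 200, as was so for 29.8% of the 7490 genes. A level is the sum of a gene's corrected UMIs in a group of cells per 10000 corrected UMIs of all genes, and the plot of levels over all cells shows how far the TGFβR-WT sets lay apart for each chain.

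**Figure D1:**
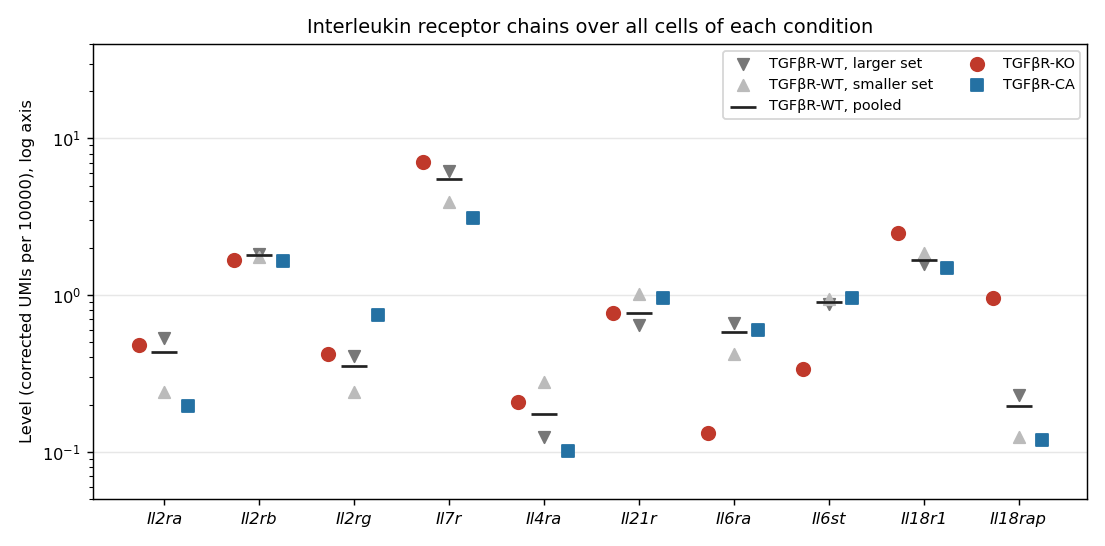
Level of each receptor chain (corrected UMIs per 10000, log axis) over all cells labelled TGFβR-KO (circles) and TGFβR-CA (squares), in the pooled TGFβR-WT cells (bars) and in their larger and smaller sets (triangles pointing down and up). *Il18rap* of TGFβR-KO, at 0.955, lay above both TGFβR-WT sets, and *Il6ra* and *Il6st* of TGFβR-KO, at 0.132 and 0.340, lay below both.

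*Il2ra* encodes CD25, the chain that gives the IL-2 receptor its high affinity and that regulatory T cells carry without further stimulation. Its level was 0.476 in cells labelled TGFβR-KO, 0.196 in TGFβR-CA, 0.531 in the larger and 0.239 in the smaller TGFβR-WT set. TGFβR-KO lay between the TGFβR-WT sets and TGFβR-CA below both, and neither was called. The share of cells with *Il2ra* above 0 was 12.6% in TGFβR-KO (exact Clopper-Pearson 95% confidence interval 11.4% to 13.8%, for counting error only), 5.74% in TGFβR-CA (4.44% to 7.28%) and 8.44% in TGFβR-WT (6.80% to 10.3%). *Foxp3*, which marks regulatory T cells, was above 0 in 31 cells of TGFβR-KO, 0 of TGFβR-CA and 21 of TGFβR-WT, and 19 of those 31 and 9 of those 21 also had *Il2ra*, against 374 and 85 cells with *Il2ra* in all. The regulatory T cell list (*Foxp3*, *Ikzf2* and *Il2ra* itself, 3 of 3 found) summed to 1.83 in TGFβR-KO, 3.93 in TGFβR-CA, 4.30 in the larger and 3.26 in the smaller TGFβR-WT set, with *Foxp3* at 0 in TGFβR-CA. Most of each sum was *Ikzf2*, at 1.29, 3.73, 3.65 and 2.88 in the same order, and *Foxp3* and *Il2ra* did not follow that order. Without the cells that had *Foxp3*, an alternative chosen after the data were seen, *Il2ra* in TR-TFH cells of TGFβR-KO was no longer called (1.502-fold above the pooled level), nor were *Il7r* (0.322) and *Il18r1* (1.52) in Activated cells of TGFβR-CA, which are given further on.

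Within clusters, *Il2ra* went in different directions in TGFβR-KO. The authors' table names 8 clusters, and 4 of them had at least 20 cells in both conditions and in both TGFβR-WT sets: GC-TFH and TR-TFH (follicular helper T cells of germinal centers and tissue-resident ones, in the authors' names), Activated and Pre-tumorigenic. In GC-TFH cells *Il2ra* had a level of 0.779 in TGFβR-KO (96 UMIs in 318 cells), 0.376 in the larger TGFβR-WT set (19 UMIs in 141 cells) and 0.0828 in the smaller (2 UMIs in 58 cells), 2.77-fold above the pooled level. It was also called higher in TR-TFH cells, 0.254 against 0.160 and 0.0561 (3 UMIs in the smaller set), and in Pre-tumorigenic cells, 0.620 against 0.329 (3 UMIs in the larger set) and 0.396. In Activated cells the order was the other way, with 0.629 in TGFβR-KO, 2.08 in the larger and 0.814 in the smaller TGFβR-WT set, a ratio of 0.363 to the pooled level that was not called because the smaller set lay within 1.5-fold. In the larger set, 28 of the 67 *Il2ra* UMIs of Activated cells came from 4 cells with at least 5 each. Activated was the cluster with the highest *Il2ra* in cells labelled TGFβR-WT (1.73) and TGFβR-CA (0.770), whereas in TGFβR-KO GC-TFH and Tumorigenic cells were highest, at 0.779 and 0.701, 1.11-fold apart. These cluster levels are descriptions, since the clusters were formed from the same cells and genes.

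*Il2rb* encodes the β chain, which IL-2 and IL-15 receptors share. Its level spanned the narrowest range of the 10 chains over these 4 sets of cells, at 1.69 in cells labelled TGFβR-KO, 1.65 in TGFβR-CA, 1.84 in the larger and 1.76 in the smaller TGFβR-WT set, with no call over all cells or in any of the 4 clusters. Among clusters it was highest in Tumorigenic (2.64), Activated (2.56) and GC-TFH (2.49) cells of TGFβR-KO and lowest in TR-TFH cells (0.819), and TGFβR-WT had Activated (3.26) and GC-TFH cells (2.65) at the top and TR-TFH cells (1.17) at the bottom. The neighbors at the top of each order were less than 1.5-fold apart. *Il2rb* was above 0 in 40.1% of TGFβR-KO, 40.3% of TGFβR-CA and 43.1% of TGFβR-WT cells.

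*Il2rg*, the common γ chain, ran from 0.299 to 0.498 over the 8 clusters of TGFβR-KO, from 0.658 to 0.877 over the 5 clusters of TGFβR-CA with at least 20 cells, and from 0.176 in Cycling to 0.450 in Activated cells over the 6 of TGFβR-WT. The highest cluster was 1.67-fold, 1.33-fold and 2.55-fold above the lowest. Over all cells its level was 0.751 in those labelled TGFβR-CA, 0.420 in TGFβR-KO, 0.407 in the larger and 0.239 in the smaller TGFβR-WT set. Cells labelled TGFβR-CA were above both sets in each of the 4 clusters, and were called higher in GC-TFH cells (0.877 against 0.495 and 0.290) and TR-TFH cells (0.686 against 0.321 and 0.224). The share of cells above 0 was 24.9% (22.4% to 27.6%) in TGFβR-CA and 11.6% (9.70% to 13.8%) in TGFβR-WT. With *Il2rg*, genes that part the TGFβR-CA library from all others moved as well: *AY036118*, which overlaps *Gm42418* so that UMIs may be shared between them, was at 85.8 in TGFβR-CA, 6.14 in TGFβR-KO, 5.43 in the larger and 1.21 in the smaller TGFβR-WT set, and *Lars2*, a mitochondrial leucyl-tRNA synthetase, was at 8.29, 1.18, 0.942 and 0.346. Both were among the 3 genes whose levels were most like those of *Il2rg* over 20 groups of cells (Pearson's r of log2 levels 0.89 and 0.85). Their part in the *Il2rg* difference was not tested.

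*Il7r* encodes the specific chain of the IL-7 receptor, which sustains naive, memory and tissue T cells. It was at 7.09 in cells labelled TGFβR-KO, 3.08 in TGFβR-CA, 6.22 in the larger and 3.92 in the smaller TGFβR-WT set. TGFβR-KO lay above both sets and TGFβR-CA below both, yet neither passed 1.5-fold against each. The clusters differed far more than the conditions. Migratory cells were highest in all conditions, with 13.3 in TGFβR-KO, 8.11 in TGFβR-CA and 14.4 in TGFβR-WT, and 77.5%, 63.5% and 86.5% of them had *Il7r* above 0. Their level was 2.11-fold, 1.80-fold and 2.08-fold above that of the next cluster. The paper names *Il7r* among the genes by which it characterized the migratory and the tissue-resident follicular helper clusters. Their place in this order is thus a description and not an independent result. GC-TFH cells were low throughout, at 0.674, 0.336 and 0.817. Within clusters, cells labelled TGFβR-CA were called lower in GC-TFH cells (0.336 against 0.574 and 1.32) and in Activated cells, where 1.18 stood against 4.35 in the larger and 2.44 in the smaller TGFβR-WT set. In the same Activated cluster TGFβR-KO had 6.30, which was 1.65-fold above the pooled level and 1.45-fold above the larger set, and was not called.

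*Il4ra*, the chain of the IL-4 and IL-13 receptors, was scarce, with 240 corrected UMIs in all cells labelled TGFβR-KO, 44 in TGFβR-CA and 65 in TGFβR-WT. Its levels were 0.209, 0.1004 and 0.175, and the TGFβR-WT sets (0.124 larger, 0.280 smaller) were 2.27-fold apart. In TGFβR-KO it was highest in Tumorigenic cells (0.602, above 0 in 17.2%), 1.54-fold above Pre-tumorigenic cells (0.390), and these 2 clusters stood above the other 6, which lay between 0.104 and 0.186. In TR-TFH cells those labelled TGFβR-CA were called lower, 0.0549 (12 UMIs in 556 cells) against 0.0980 and 0.112 (11 and 6 UMIs). In Pre-tumorigenic cells, 1 UMI in 83 cells of TGFβR-CA stood against 1 in 27 cells of the larger and 12 in 52 cells of the smaller TGFβR-WT set, too few for a call.

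*Il21r* encodes the receptor chain for IL-21, a cytokine made by follicular helper T cells. Over all cells it was at 0.767 in those labelled TGFβR-KO and 0.963 in TGFβR-CA, between the 0.646 of the larger and the 1.02 of the smaller TGFβR-WT set. Like *Il4ra*, whose gene lies 24.0 kb away on the same strand of chromosome 7, it was highest in Tumorigenic cells of TGFβR-KO (1.37, above 0 in 34.6%), although GC-TFH cells (1.10) were within 1.5-fold. The only call was in Activated cells of TGFβR-CA, at 1.52 against 0.964 in the larger set and 0.163 in the smaller, where it rested on 2 UMIs in 29 cells.

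The IL-6 receptor genes were both lower in TGFβR-KO, and the 250 bases before their transcription starts are shown for that reason. *Il6ra* lies on the minus strand of chromosome 3 (GRCm38 89864059 to 89913196, GENCODE) and *Il6st* on the plus strand of chromosome 13 (112464070 to 112510086). The sequences are from RefSeq, build GRCm38.p6, at chr3:89913197-89913446 on the minus and chr13:112463820-112464069 on the plus strand, written 5′ to 3′ with CpG pairs in capitals.
Il6ra: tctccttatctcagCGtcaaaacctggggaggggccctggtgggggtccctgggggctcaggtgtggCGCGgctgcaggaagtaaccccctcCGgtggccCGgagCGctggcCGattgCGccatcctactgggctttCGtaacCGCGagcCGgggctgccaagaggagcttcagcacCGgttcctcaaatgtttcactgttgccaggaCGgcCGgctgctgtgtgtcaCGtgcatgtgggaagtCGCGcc
Il6st: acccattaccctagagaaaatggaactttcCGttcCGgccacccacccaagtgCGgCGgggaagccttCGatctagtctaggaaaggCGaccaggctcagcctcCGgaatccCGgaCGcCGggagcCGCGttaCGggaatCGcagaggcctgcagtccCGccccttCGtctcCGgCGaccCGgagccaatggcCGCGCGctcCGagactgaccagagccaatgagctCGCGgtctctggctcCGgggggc
They held 18 and 26 CpG pairs, where the median of 32851 such RefSeq windows was 6. A link between these sequences and the levels was not tested.

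*Il6ra* encodes the chain that binds IL-6, and *Il6st* (gp130) passes the signal on, mainly to STAT3. Over all cells *Il6ra* was at 0.132 in those labelled TGFβR-KO, 0.602 in TGFβR-CA, 0.658 in the larger and 0.420 in the smaller TGFβR-WT set. *Il6st* was at 0.340, 0.951, 0.878 and 0.940 in the same order. For both genes TGFβR-KO lay below all other groups, and TGFβR-CA lay between the TGFβR-WT sets for *Il6ra* and just above both for *Il6st*. *Il6ra* was above 0 in 4.27% of TGFβR-KO cells (3.57% to 5.06%), 18.1% of TGFβR-CA cells (15.9% to 20.5%) and 15.4% of TGFβR-WT cells (13.2% to 17.8%), and *Il6st* in 10.1% (8.99% to 11.2%), 26.0% (23.4% to 28.7%) and 23.5% (20.9% to 26.3%).

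Both IL-6 receptor chains were found mainly in the follicular helper clusters. In TGFβR-KO, GC-TFH and TR-TFH cells were 28.1% of cells and held 77.5% of the *Il6ra* and 69.7% of the *Il6st* UMIs, and in TGFβR-WT they were 65.4% of cells and held 91.7% and 88.9%. Tumorigenic cells, of which TGFβR-KO had 361 and TGFβR-WT 5, held 1 *Il6ra* and 7 *Il6st* UMIs in TGFβR-KO. Among CTL cells (cytotoxic T lymphocytes in the authors' naming) *Il6ra* was above 0 in 0 of 321, which allows a share of up to 0.935% of cells with a UMI (3 of 321 cells) and sets no limit on cells that express the gene, while *Il6st* was above 0 in 6.85%. Free RNA in the droplets, which would give all clusters a like low share, was not measured, since no cluster of other cells is in the table.

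Where the cluster was held fixed, *Il6ra* of TGFβR-KO was lower in both follicular helper clusters, with a call in 1 of them. In TR-TFH cells *Il6ra* was at 0.301 in TGFβR-KO against 0.882 in the larger and 0.561 in the smaller TGFβR-WT set, and was called lower. In GC-TFH cells 0.479 stood against 1.03 and 0.704, which was 1.93-fold below the pooled level and 1.47-fold below the smaller set, and was not called. In Pre-tumorigenic cells 0.103 lay between the 0.549 of the larger and the 0 of the smaller set, and was not called. Activated cells had too few *Il6ra* UMIs for a ratio, with 2 in TGFβR-KO and 2 in TGFβR-WT. With the 4 comparable clusters alone, each weighted by its share in TGFβR-WT, *Il6ra* was 2.30-fold lower in TGFβR-KO and was called. Migratory, Tumorigenic, CTL and Cycling cells did not enter this weighting. *Il6st* was 1.52-fold lower and was not called, being 1.46-fold below the larger set. At those equal shares *Il18rap* was the single chain called higher, beside 1.43% of all genes, and *Il6ra* the single one called lower, beside 4.58%. *Il18rap* reached the minimum of UMIs over all cells only through TGFβR-KO, so its call describes this gene only. *Il6st* was called within a cluster in Activated cells only, where both TGFβR-KO and TGFβR-CA had 0.188, against 0.467 in the larger and 0.488 in the smaller TGFβR-WT set (15 and 6 UMIs). In GC-TFH cells *Il6st* was at 1.01 in TGFβR-KO, while TGFβR-CA had 1.85 and the TGFβR-WT sets 1.49 (larger) and 1.66 (smaller), so that TGFβR-KO was the lowest of these 4.

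**Figure D2:**
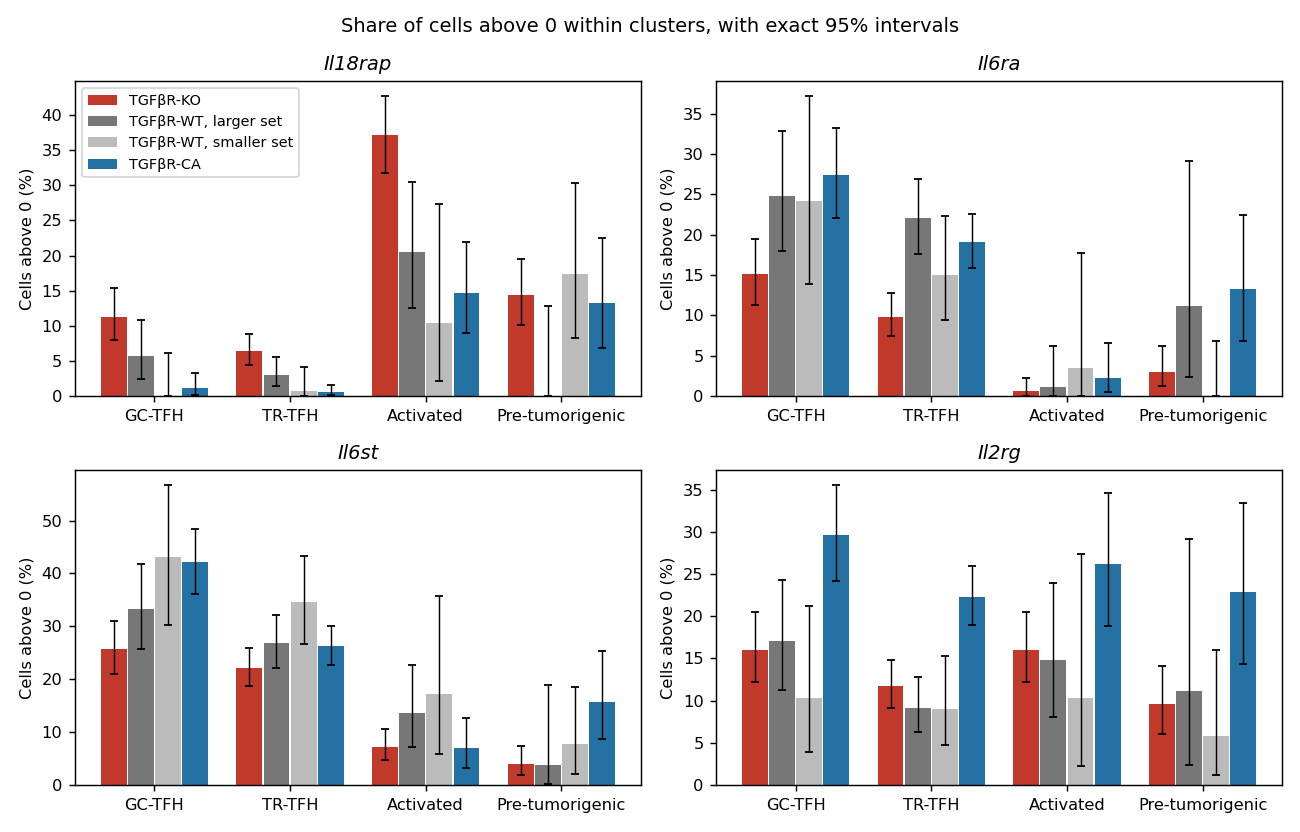
Share of cells above 0 (%) for *Il18rap*, *Il6ra*, *Il6st* and *Il2rg* in the 4 clusters that could be compared, with exact 95% intervals (counting error only), for cells labelled TGFβR-KO and TGFβR-CA and for both TGFβR-WT sets. *Il18rap* was above 0 in 37.1% of Activated cells of TGFβR-KO, 20.5% and 10.3% in the TGFβR-WT sets and 14.6% in TGFβR-CA, and *Il2rg* in 29.7% of GC-TFH cells of TGFβR-CA against 17.0% and 10.3%.

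The IL-18 receptor genes are neighbors on the plus strand of chromosome 1, *Il18r1* from 40465552 to 40500854 and *Il18rap* from 40515362 to 40551705 (GRCm38), 14.5 kb apart. The 250 bases before each start are shown because the neighbors differed in level and cluster pattern. They lie at chr1:40465302-40465551 and chr1:40515112-40515361, from RefSeq GRCm38.p6, plus strand, 5′ to 3′, with CpG pairs in capitals.
Il18r1: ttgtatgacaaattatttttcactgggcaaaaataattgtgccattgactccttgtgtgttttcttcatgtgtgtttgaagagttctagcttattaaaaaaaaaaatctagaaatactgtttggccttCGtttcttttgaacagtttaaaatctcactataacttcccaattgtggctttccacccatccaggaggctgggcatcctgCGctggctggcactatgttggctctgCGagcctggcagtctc
Il18rap: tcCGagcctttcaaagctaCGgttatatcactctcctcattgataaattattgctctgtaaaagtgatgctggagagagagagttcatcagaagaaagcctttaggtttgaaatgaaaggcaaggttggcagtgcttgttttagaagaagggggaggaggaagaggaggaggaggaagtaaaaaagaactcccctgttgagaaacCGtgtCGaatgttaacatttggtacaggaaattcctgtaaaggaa
These windows held 3 and 4 CpG pairs, against 18 and 26 before the IL-6 receptor genes. RefSeq gave 3 windows for *Il18r1*, and the one nearest its GENCODE start is shown. A link between the windows and the levels was not tested. Of 5 motifs searched on both strands in the 9 chains with a RefSeq window, AP-1 (TGANTCA, in 6.75% of all windows) and T-box (TCACACC, 3.33%) matched none. STAT (TTCNNNGAA, 7.02%) matched in the window of *Il7r*, RUNX (TGTGGT, 14.0%) in those of *Il2rg* and *Il21r*, and SMAD (CAGACA, 17.1%) in that of *Il21r*. The other 6 had no match. The *Il7r* window (chr15:9529877-9530126, minus strand) lies inside the gene as GENCODE places it. For *Il7r* and *Il2ra*, the bases just after the window were found in no GENCODE transcript of the gene. A match describes letters in the window and is not a binding site.

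*Il18rap*, the accessory chain that the IL-18 receptor needs to signal, was at 0.955 in cells labelled TGFβR-KO (1096 UMIs), 0.119 in TGFβR-CA (52 UMIs), 0.231 in the larger and 0.124 in the smaller TGFβR-WT set (58 and 15 UMIs). TGFβR-KO lay above all other groups, 4.13-fold above the nearer TGFβR-WT set, and TGFβR-CA lay just under the smaller set. It was above 0 in 25.4% of TGFβR-KO cells (23.9% to 27.02%), 3.55% of TGFβR-CA cells (2.54% to 4.82%) and 6.55% of TGFβR-WT cells (5.11% to 8.26%). Its highest clusters in TGFβR-KO were CTL (2.12) and Tumorigenic (1.53) cells, 1.38-fold apart, which made up 22.9% of cells and held 43.1% of its UMIs. TGFβR-WT had only 13 CTL and 5 Tumorigenic cells and TGFβR-CA 3 and 2, so these clusters could not be compared.

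In 3 of the 4 clusters that could, *Il18rap* was called higher in TGFβR-KO. In Activated cells it was at 1.35 in TGFβR-KO, 0.653 in the larger and 0.244 in the smaller TGFβR-WT set (21 and 3 UMIs), and 0.470 in TGFβR-CA. In TR-TFH cells the levels were 0.213, 0.0980, 0.0187 (1 UMI in the smaller set) and 0.0137 (3 UMIs). In GC-TFH cells 0.373 stood against 0.178 in the larger set, and the smaller set had 0 UMIs in 58 cells. In Pre-tumorigenic cells, by contrast, 0.482 in TGFβR-KO was next to 0.495 in the smaller TGFβR-WT set and 0.502 in TGFβR-CA, and the larger set had 0 UMIs in 27 cells. Migratory cells, with 16 cells in the smaller set and so not called, had 0.924 in TGFβR-KO (303 UMIs in 831 cells), 0.296 in the larger set (8 UMIs in 73 cells) and 0.140 in TGFβR-CA (3 UMIs in 52 cells). In the 4 comparable clusters alone, weighted by their TGFβR-WT shares, *Il18rap* was 2.50-fold higher in TGFβR-KO. The 4.87-fold over all cells also covers the clusters left out of that weighting, CTL, Tumorigenic and Migratory among them.

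*Il18r1*, the IL-18-binding chain, was at 2.47 in cells labelled TGFβR-KO, 1.497 in TGFβR-CA, 1.57 in the larger and 1.86 in the smaller TGFβR-WT set. TGFβR-KO was highest, 1.49-fold above the pooled and 1.33-fold above the smaller set, just short of a call. In the 4 comparable clusters alone, weighted by their TGFβR-WT shares, *Il18r1* was at 1.54 in TGFβR-KO and 1.47 in TGFβR-WT. Like *Il7r*, it was highest in Migratory cells (3.84 in TGFβR-KO, 4.66 in TGFβR-CA, 4.05 in TGFβR-WT) and lowest in GC-TFH cells (0.601, 0.364, 0.402). Within clusters the single call was in Activated cells of TGFβR-CA, at 3.98 against 2.61 and 2.60, a ratio of 1.53.

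**Figure D3:**
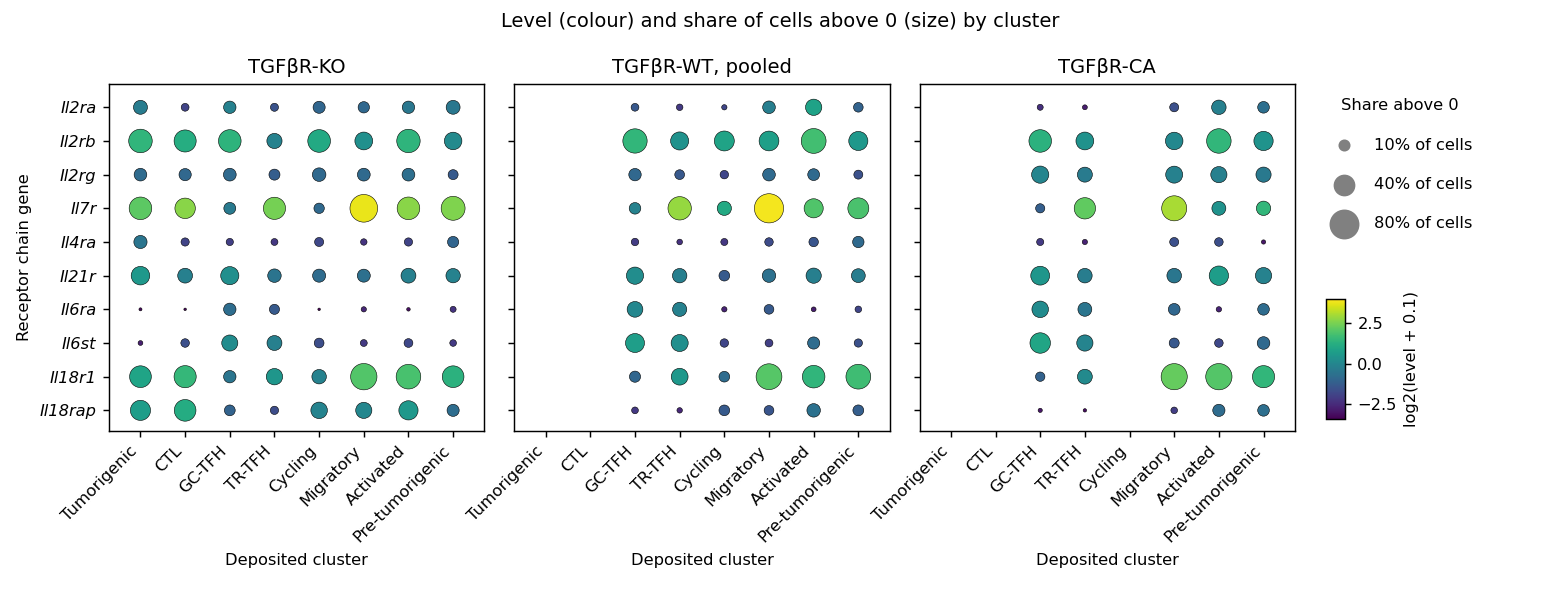
Level (colour, log2 of level plus 0.1) and share of cells above 0 (circle size, %) of each receptor chain by deposited cluster, for conditions with at least 20 cells in the cluster. *Il7r* and *Il18r1* were highest in Migratory cells, *Il6ra* and *Il6st* in GC-TFH and TR-TFH cells, and *Il18rap* of TGFβR-KO in CTL and Tumorigenic cells.

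Over the 4 comparable clusters, the 10 chains gave 40 pairs of a gene and a cluster for each condition. In TGFβR-KO, 6 of 40 were called higher, beside 3.27% of the 29960 pairs of all genes, and 2 of 40 lower, beside 8.56%. The 6 were *Il18rap* and *Il2ra* in 3 clusters each. *Il18rap* had 1096 of its 1221 UMIs in TGFβR-KO and reached the minimum of UMIs over all cells only through that condition. The count of 6 is therefore a description of these genes only, and no excess over all genes is read from it. In TGFβR-CA, 4 of 40 were called higher, beside 3.72%, and 4 lower, beside 6.17%: *Il2rg* in 2 clusters, *Il21r* and *Il18r1* in Activated cells, and, on the lower side, *Il7r* in 2 clusters, *Il4ra* in TR-TFH and *Il6st* in Activated cells. With the 4 clusters weighted by their TGFβR-WT shares, *Il2rg* remained called in TGFβR-CA at 2.18-fold. That was 1 of 10 chains higher beside 1.08% of genes, and 0 were lower beside 2.54%. The same TGFβR-WT cells served both comparisons.

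**Figure D4:**
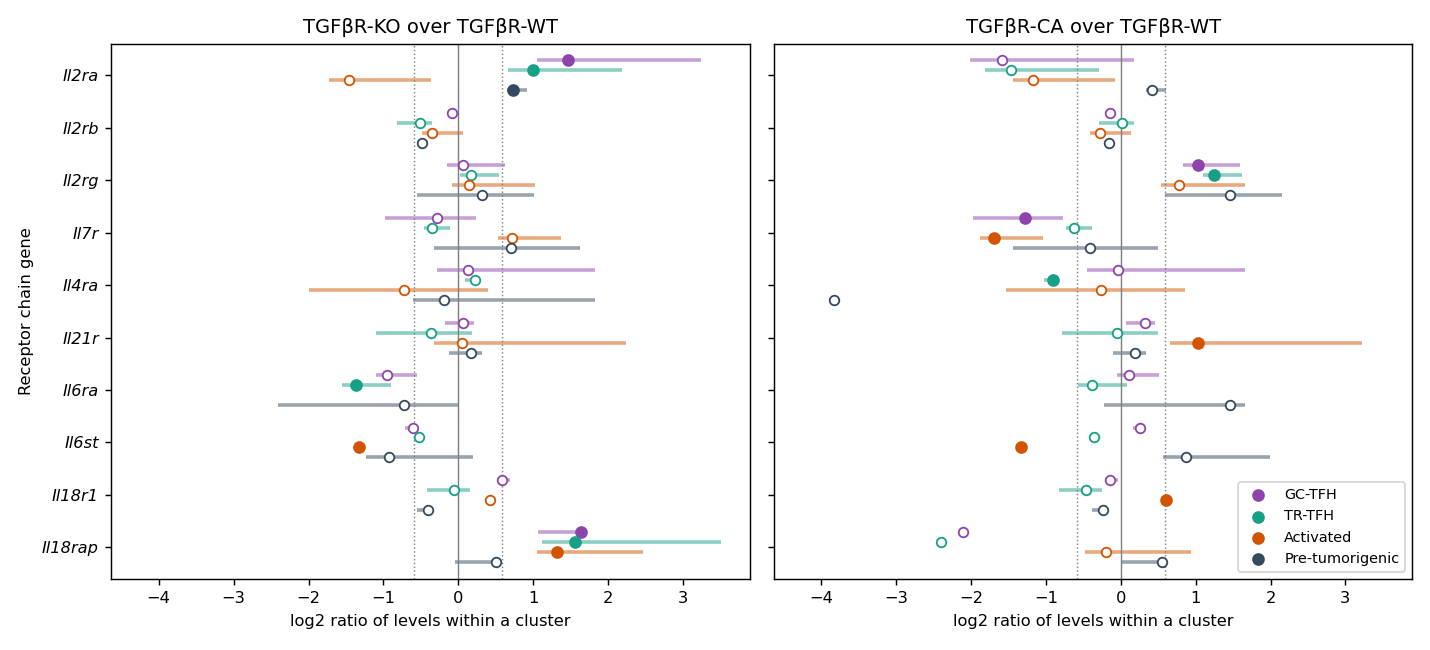
Log2 ratio of the level in TGFβR-KO (left) and TGFβR-CA (right) to that in pooled TGFβR-WT cells of the same cluster. Lines run between the ratios to the larger and the smaller TGFβR-WT set (none where either could not be given or they nearly coincide), filled points are called, dotted lines mark 1.5-fold, values at 0 are set to 3 UMIs, and a pair at or under that floor in both groups has no point. *Il18rap* was called higher in 3 clusters of TGFβR-KO and *Il2rg* in 2 clusters of TGFβR-CA.

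Whether partner chains were found in the same cells was described by detection, which depends on the few UMIs per cell. In TGFβR-KO, *Il18rap* was above 0 in 31.7% of 1422 cells with *Il18r1* (29.3% to 34.2%) and in 19.6% of 1553 cells without it (17.7% to 21.7%). The gap differed between clusters. In GC-TFH cells the shares were 31.2% (15 of 48) and 7.78% (21 of 270), and in TR-TFH cells 12.2% and 4.21%. In Migratory cells they were 26.4% and 25.1% and in Tumorigenic cells 41.3% and 40.2%, with overlapping intervals. Intervals also overlapped in CTL, Cycling, Activated and Pre-tumorigenic cells. For the IL-6 receptor, *Il6st* was above 0 in 28.3% of TGFβR-KO cells with *Il6ra* and 9.23% of those without. Within TR-TFH cells of TGFβR-KO the shares were 23.5% and 22.0%, and within GC-TFH cells 39.6% of 48 (25.8% to 54.7%) and 23.3% of 270 (18.4% to 28.8%), with overlapping intervals. In GC-TFH cells of TGFβR-CA *Il6st* was found in 56.9% of 72 cells with *Il6ra* (44.7% to 68.6%) and 36.7% of 191 without (29.8% to 43.9%), and in GC-TFH cells of TGFβR-WT in 30.6% and 38.0%. TR-TFH cells had 22.6% and 27.1% in TGFβR-CA and 30.4% and 28.8% in TGFβR-WT. Between receptors, *Il18r1* was above 0 in 59.5% of TGFβR-KO cells with *Il7r* and 34.8% without. The shares were 67.4% and 36.6% in CTL, 35.0% and 18.7% in TR-TFH and 56.4% and 35.1% in Pre-tumorigenic cells, with intervals apart. They were 70.8% and 68.4% in Migratory cells, with overlapping intervals. Intervals also overlapped in Tumorigenic (53.2% and 41.7%), Activated (67.1% and 55.2%), GC-TFH (25.0% and 13.5%) and Cycling cells (25.0% and 20.3%).

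**Figure D5:**
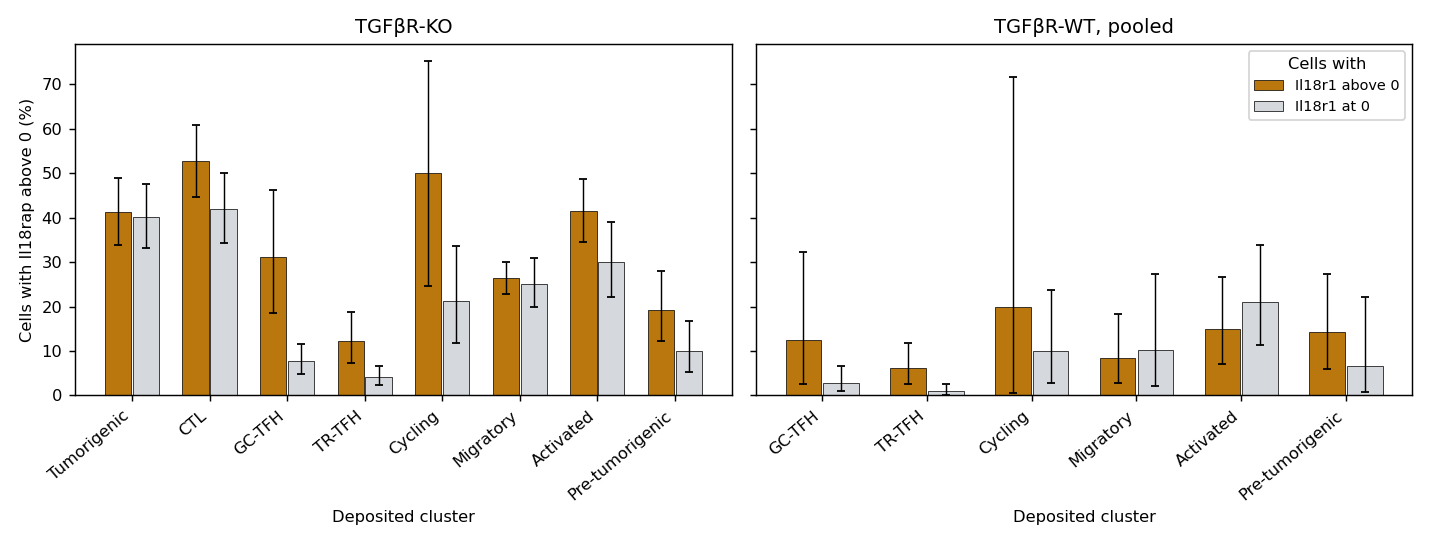
Share of cells with *Il18rap* above 0 (%) among cells with *Il18r1* above 0 and at 0, by deposited cluster, in TGFβR-KO and pooled TGFβR-WT, with exact 95% intervals (counting error only). In TGFβR-KO the shares were 31.2% and 7.78% in GC-TFH cells and 26.4% and 25.1% in Migratory cells.

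The likeness of profiles was measured as Pearson's r of log2(level + 0.1) over 20 groups of at least 50 cells, each 1 cluster of 1 set, among 4999 genes. The groups share libraries and clusters, so r is a description. The genes most like *Il18rap* were *Nkg7* (0.93), a granule protein gene of cytotoxic cells, the chemokine receptor *Cxcr6* (0.91) and *Cd226* (0.91). *Il6st* was most like *Cd27* (0.95), *Trim8* (0.94) and *Cxcr5* (0.94), the chemokine receptor of follicular helper T cells, and *Il6ra* most like *St6gal1* (0.94), *Ntrk3* (0.92) and *Cd2ap* (0.91). *Il18r1* was most like *Stk10* and *Grap2* (0.91 each) and *Selplg* (0.88), and *Il7r* most like *Pik3r1* (0.88), *Arhgap9* (0.84) and *Arhgef18* (0.82). For *Il2ra* the nearest gene was *Il23r* (0.89), followed by *Srgap3* (0.87) and *Rexo2* (0.86), and for *Il2rb* it was *Morf4l2* (0.84), *Bcl3* (0.83) and *Mapkapk2* (0.82). *Il21r* had no gene above 0.74 (*Arap2*, *Bcl2a1b* and *Tmed10*). Among the chains themselves, *Il6ra* and *Il6st* had an r of 0.82, *Il18rap* had −0.86 with *Il6ra* and −0.79 with *Il6st*, *Il7r* and *Il18r1* had 0.71, and *Il18r1* and *Il18rap* 0.52. *Il2rg* had between −0.16 and 0.21 with every other chain compared.

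Other genes of these pathways were taken from lists by name. Of 16 other interleukin receptor chains 11 passed the filter of 200 UMIs, and 2 were called higher in TGFβR-KO, beside 2.94% of all genes, and 0 lower, beside 5.43%. *Il9r*, the IL-9 receptor, was at 0.232 against 0.0918 and 0.0989 in the larger and smaller TGFβR-WT sets. *Il12rb2*, the IL-12 receptor chain of Th1 cells, was at 0.177, while the larger set had none and the smaller 0.0330. TGFβR-KO held 266 of the 354 *Il9r* and 203 of the 216 *Il12rb2* UMIs, so both passed the filter through the condition in which they were high, and their count is a description of these genes only. In TGFβR-CA 1 of the 11 was called lower, beside 2.74% of all genes, and 0 higher, beside 1.23%. It was *Il17re*, at 0.205 against 0.551 and 0.585. Of the ligands, 6 of 7 were in the table and 3 passed the filter: *Il2* was called higher in TGFβR-KO (0.240 against 0.1197 and 0.0165), *Il21* lower (0.428 against 1.22 and 0.734), and *Il4* was not called. Of the 336 *Il2* UMIs 276 were from TGFβR-KO, so it too passed only through that condition. No ligand was called in TGFβR-CA.

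Signaling genes showed few calls. None of 4 Janus kinases, 7 STAT factors or the 2 of 5 IL-18 signaling genes that passed the filter was called in either condition, and the decoy *Il18bp* did not pass it. *Jak2* came close in TGFβR-KO, at 0.878 against 1.85 and 1.29. Of 7 target and feedback genes 6 passed the filter. *Socs3*, the feedback inhibitor of gp130 signaling, was called higher in TGFβR-KO, at 0.677 against 0.435 and 0.379, as was *Bcl2l1*, a survival gene, at 0.212 against 0.108 and 0.124, with 243 of its 319 UMIs from TGFβR-KO and so past the filter only through it. *Socs3* was also called higher in TGFβR-CA, at 0.655. These were 2 of 6 higher and 0 lower in TGFβR-KO, and 1 of 6 higher and 0 lower in TGFβR-CA, beside the same shares of all genes as above.

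A median of 2 of the 10 chains was above 0 per cell in each condition, and 7.26% of TGFβR-KO, 7.92% of TGFβR-CA and 8.84% of TGFβR-WT cells had none. Among clusters with at least 20 cells, Migratory cells had the fewest without any chain in TGFβR-KO (1.93%) and TGFβR-WT (2.25%), and Cycling cells the most (20.8% and 35.6%). In TGFβR-CA Activated cells had the fewest (3.08%), and Migratory cells had 7.69%.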

How the data were processed

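The 4 pools of sorted cells were profiled by droplet-based scRNA-seq. Per the submitters' processing notes and the study's methods, the authors counted UMIs with Cell Ranger 3.1.0 on mm10 and used Seurat to filter cells, drop epithelial and γδ T cells, normalize with SCTransform, integrate and cluster. In the deposited table each value is the natural log of the corrected UMI number plus 1, and all 7880276 values above 0 were whole within 1e-06 once the log was undone. They are not raw counts, so the depth of a cell is unknown, no count model was fitted, cells were not thinned, and differences in original depth between libraries can remain as shares at 0. In all, 5080 cells were used and 0 columns of samples were left aside.

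Levels per 10000 and shares above 0 were computed with Python 3.11.15, numpy 2.4.6, pandas 2.3.3 and scipy 1.17.1, and figures with matplotlib 3.10.9. Cluster names are the authors'. No doublet caller was run, and an alternative left out the 5% of cells with the most genes. Levels over all cells were compared by the rule of 1.5-fold against the pooled TGFβR-WT cells and both sets. So were levels over the 4 comparable clusters alone, weighted by their TGFβR-WT shares. The calls were tried on simulated counts and the likeness measure on a planted profile. In the simulated counts the TGFβR-WT sets differed by counting error only, and the planted changes were larger than 1.5-fold. The trial therefore cannot say how reliable a call at 1.5-fold is where the sets themselves lie apart. Genes named are the 10 chains, called genes of the lists, and the 3 genes most like each chain with at least 500 UMIs. *Jak2*, *Il4*, *AY036118* and *Lars2* levels were added after their values were seen. The chains and lists were chosen with earlier results of these data known. Gene positions are from GENCODE M21 and sequences from RefSeq, which matched 9 of 10 chains by symbol. Alternatives changed the control set, fold, cluster, filter, weighting and cells used.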

Additional observations from a re-analysis of the deposited data

Results flagged for a closer look

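For 3 chains, a level called in at least 1 cluster lay on the other side of the pooled TGFβR-WT cells and of both sets in at least 1 other cluster. The differences between clusters were not tested, and cells of 1 sample are not replicates.

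*Il2ra* in TGFβR-KO over TGFβR-WT was 2.77 in GC-TFH, 2.01 in TR-TFH and 1.65 in Pre-tumorigenic cells, against 0.363 in Activated cells. In that cluster the level in the smaller TGFβR-WT set, 0.814, was much nearer to the 0.629 of TGFβR-KO than that of the larger set, 2.08.

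*Il6st* in TGFβR-CA over TGFβR-WT was 0.398 in Activated cells, against 1.20 in GC-TFH and 1.84 in Pre-tumorigenic cells. It rested on 10 UMIs in 130 Activated cells and 14 UMIs in 83 Pre-tumorigenic cells labelled TGFβR-CA.

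*Il18r1* in TGFβR-CA over TGFβR-WT was 1.53 in Activated cells, against 0.906 in GC-TFH, 0.725 in TR-TFH and 0.849 in Pre-tumorigenic cells.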

How the results depend on the processing

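The number of called chains depended mainly on which TGFβR-WT cells were the control. So did the share of all genes called, given here in parentheses. In TGFβR-KO 3 chains were called (8.37%), 5 against the larger set alone (13.8%) and 6 against the smaller (29.2%). In TGFβR-CA 1 was called (3.97%), 4 against the larger set (12.9%), 2 against the smaller (19.1%), 5 against the pooled cells alone (9.64%) and 0 at a fold of 2 (0.908%). Of pairs of a chain and a cluster, 8 of 40 were called in TGFβR-KO (11.8%), 23 against the smaller set (41.8%), 16 against the pooled cells (27.6%) and 5 at a fold of 2 (3.75%). In TGFβR-CA 8 were called (9.89%), 19 against the larger set (29.5%), 17 against the smaller (36.1%), 19 against the pooled cells (26.6%) and 3 at a fold of 2 (3.0%). In 11 of 30 pairs of a chain and a condition the highest cluster led the next by 1.5-fold, and in 4 at a fold of 2. The share of all genes with such a lead was not computed, so this count only describes the chains. No ratio of a called chain reversed. *Il18rap* (3.73 to 7.72-fold higher), *Il6ra* (3.20 to 5.005-fold lower) and *Il6st* (2.28 to 2.77-fold lower) were called in TGFβR-KO over all cells under each of 14 alternatives, and *Il2rg* in TGFβR-CA (1.85 to 3.14-fold higher) under 13. Leaving out cells with *Foxp3*, chosen after seeing the data, gave 3 (8.73%) and 1 (4.09%) chains and 7 (12.3%) and 7 (9.88%) pairs in TGFβR-KO and TGFβR-CA. Within clusters, *Il18rap* in 3 clusters, *Il6st* in Activated cells, *Il2ra* in GC-TFH cells and *Il2rg* in TR-TFH cells were called under each of 13 alternatives, and *Il18r1* in Activated cells of TGFβR-CA under 7, the fewest. Not all of these alternatives could remove a call. A call needs 1.5-fold against every control, so any control used alone keeps it. Dropping the filter on low genes keeps it as well.

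No paired analysis was possible because each of TGFβR-KO and TGFβR-CA is a single sample and the TGFβR-WT cells could not be assigned to theirs. Variation between mice was not measured, and a chain such as *Il4ra*, with 349 UMIs over all cells, allows a call within a cluster only for large differences.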
